A study of Mus musculus with 2 samples.

Results

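The genes described here are the noncoding RNA of the 7SK complex, the proteins that it works with, and the catalytic RNAs of the enzymes RNase P and RNase MRP. They are 9 of the 25430 gene names in a table of RNA sequencing values from mouse embryonic fibroblasts, listed there in capitals as RN7SK, RPPH1, RMRP, LARP7, MEPCE, HEXIM1, CDK9, CCNT1 and CCNT2. Each name had 1 row. The set was chosen by function and selected on the difference between the same libraries, since the higher values of the RNAs were known when it was drawn up, so every value below is a description and no test is given. Counting intervals show only how many fragments stand behind a ratio.

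Primary fibroblasts came from E13.5 embryos of matings between Sptbn1 heterozygotes, and the groups were wild type and Sptbn1 knockout, a homozygous loss according to the series title. Sptbn1 encodes beta-2 spectrin, a scaffold of the membrane skeleton. The labels name no Cre driver, clone or number of embryos behind a culture, and give 1 library to each genotype. No difference could therefore be set against a spread between cultures, and the values compare libraries, not conditions.

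7SK RNA is made by RNA polymerase III. It acts as a scaffold on which HEXIM proteins hold the kinase P-TEFb, a pair of CDK9 and cyclin T, in an inactive state. P-TEFb released from 7SK phosphorylates RNA polymerase II and its pausing factors, and paused polymerases then enter elongation. RNase P, whose RNA is Rpph1, trims the leader of precursor tRNAs, and the related RNase MRP, whose RNA is Rmrp, acts in ribosomal RNA maturation. All 3 RNAs are short and structured and lack the poly(A) tail of messenger RNA.

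Stretches of 7SK are shown first because they hold the places where its protein partners bind. The sequences are DNA letters of the GENCODE vM21 transcripts (GRCm38), written 5′ to 3′. Capitals in the opening stretch mark every GATC, which is GAUC in the RNA. HEXIM recognises this motif in the hairpin at the 5′ end, but a mark alone does not show that a copy lies in the hairpin or is bound. Capitals in the closing stretch mark the run of T at the 3′ end, the kind of end that LARP7 holds.
Rn7sk, bases 1 to 110: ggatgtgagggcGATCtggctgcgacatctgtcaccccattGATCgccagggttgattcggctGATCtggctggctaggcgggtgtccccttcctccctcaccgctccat
Rn7sk, bases 282 to 331: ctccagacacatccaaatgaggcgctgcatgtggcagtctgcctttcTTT
GATC occurred 3 times in the 331 bases, beginning at bases 13, 42 and 64, all within the stretch shown. The longest run of A was 3 bases in Rn7sk, 2 in Rpph1 and 3 in Rmrp.

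Values are given in FPKM, a fragment count divided by transcript length and by the size of the library. The knockout library was the shallower. Among 3081 names above 0 in both libraries with a mean under 0.3 FPKM, the commonest ratio put the FPKM value of 1 fragment 1.61 times higher in the knockout. Names with transcripts of 250 to 450 bases that held 1 or 2 fragments then gave a rough absolute scale, of about 18000000 fragments for the knockout and 29100000 for wild type. Sptbn1 itself, listed as SPNB2, was at 69.6 FPKM in wild type and 36.6 FPKM in the knockout, 52.5% of wild type, and the labels do not say which part of the gene was deleted. In RNA from a whole culture, fewer cells of a type and less RNA per cell cannot be told apart. The 12 fibroblast markers all passed 1 FPKM, with a median log2 ratio of -0.06. The 12 macrophage markers summed to 1267 FPKM in wild type and 787 FPKM in the knockout, with 11 of 12 lower, and their part in the values below was not tested. Epithelial, endothelial and erythroid lists had 1 measured marker each.

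The 3 RNAs were higher in the knockout library, and the 6 protein genes were near equal. Differences are given as log2((knockout FPKM + 1)/(wild-type FPKM + 1)). A gene was counted as measured when its mean over the libraries was 1 FPKM or more, which held for all 9 and for 11070 names. Of the measured names, 0.361% were 2-fold or more higher in the knockout and 0.379% were 2-fold or more lower. On the deposited scale 4087 measured names lay above 0 and 6982 below it, and list counts below are to be read beside this split. The RNAs had log2 ratios of 0.87 to 1.56, with 2 of 3 past 2-fold, and the protein genes had ratios of -0.20 to 0.20, with 0 of 6 past it. Nothing is read from these counts against the background, since the RNAs were selected on this difference. With both libraries set to a common FPKM sum, the split among all measured names changed from 40 higher and 42 lower to 105 and 26, and the median of all measured names moved by 0.39.

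**Figure D1:**
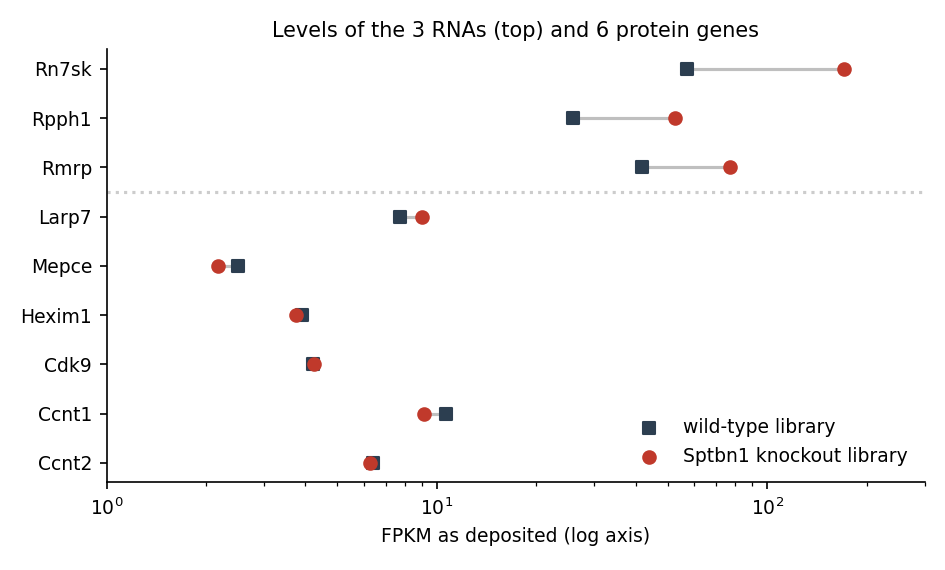
FPKM as deposited (log axis) of the 3 RNAs, above the dotted line, and the 6 protein genes, with squares for the wild-type library and circles for the knockout library. The RNAs lie apart in the 2 libraries, Rn7sk at 57.3 and 171 FPKM, while squares and circles of Hexim1, Cdk9 and Ccnt2 nearly coincide.

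Rn7sk was at 57.3 FPKM in wild type and 171 FPKM in the knockout. Its log2 ratio was 1.56, and the plain ratio of the deposited values was 2.98. It was the name with the 386th highest value in wild type and the 93rd highest in the knockout. With the fragment scale above and the 332 bases of its RefSeq model, these values stand for about 285 fragments in wild type and 532 in the knockout. The exact 95% binomial interval of the plain ratio from these counts was 2.58 to 3.45, which covers counting error only and takes the fitted scale as given. By this estimate the knockout library held more 7SK fragments outright, although it was the shallower.

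Rmrp, the RNA of RNase MRP, was at 41.7 FPKM in wild type and 77.3 FPKM in the knockout. Its log2 ratio of 0.87 was short of 2-fold, with a plain ratio of 1.85 and a counting interval of 1.47 to 2.34 on about 138 and 161 fragments. Rpph1, the RNA of RNase P, was at 25.8 FPKM in wild type and 52.6 FPKM in the knockout. Its log2 ratio was 1.00, just past 2-fold, and its plain ratio was 2.04 with an interval of 1.60 to 2.60 on about 123 and 157 fragments. In both libraries the order of levels was Rn7sk, then Rmrp, then Rpph1. Rn7sk was at 1.37 times Rmrp in wild type and 2.21 times in the knockout, while Rmrp over Rpph1 was 1.62 in wild type and 1.47 in the knockout.

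The genes of the proteins that keep 7SK intact differed little in RNA level. Larp7 encodes the La-related protein that protects the 3′ end of 7SK. It was the highest of the 6 by log2 ratio, at 7.70 FPKM in wild type and 8.99 FPKM in the knockout, a log2 ratio of 0.20. Mepce, the methyltransferase that caps the 5′ end of 7SK, was the lowest of the 6 by level, at 2.50 and 2.18 FPKM in the same order, a log2 ratio of -0.14. Hexim1, the inhibitor that holds P-TEFb on 7SK, was at 3.90 FPKM in wild type and 3.75 FPKM in the knockout (-0.04).

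The subunit genes of P-TEFb were as close. Cdk9, the kinase, was at 4.21 FPKM in wild type and 4.26 FPKM in the knockout, a log2 ratio of 0.01. Among measured names, 6.20% had a smaller absolute log2 ratio than Cdk9 and 10.8% than Ccnt2, but 73.6% than Ccnt1 and 73.7% than Larp7. The cyclin partner Ccnt1 was at 10.7 FPKM in wild type and 9.16 FPKM in the knockout (-0.20), and the other cyclin, Ccnt2, was at 6.40 and 6.29 FPKM (-0.02). The counting interval of the plain ratio was 1.01 to 1.35 for Larp7, 0.863 to 1.18 for Cdk9 and 0.801 to 0.922 for Ccnt1, with fragments estimated from the longest GENCODE transcript. The range of log2 ratios spanned by the 6 protein genes also held 73.7% of all measured names.

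**Figure D2:**
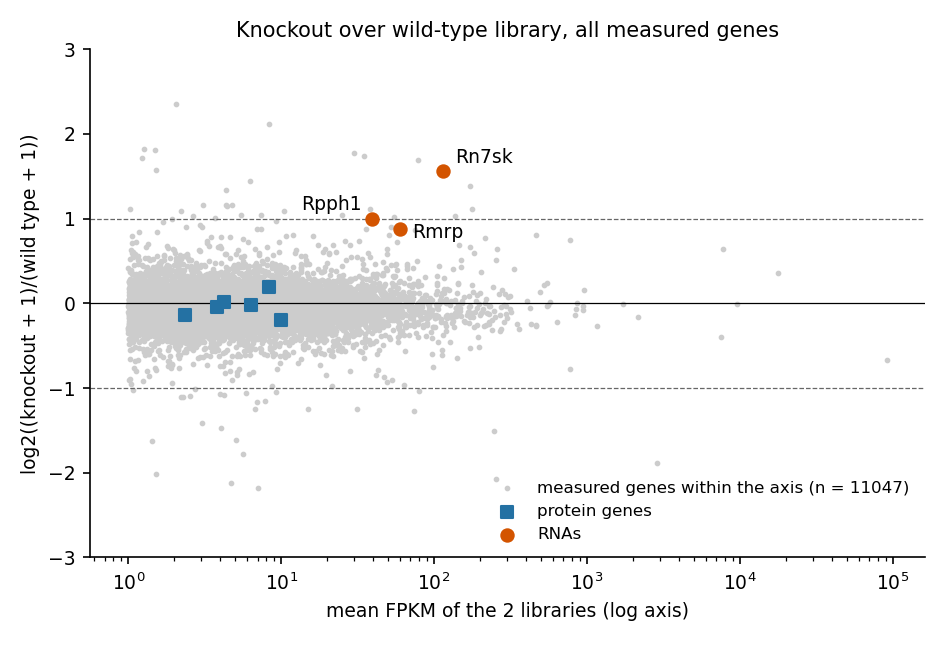
Log2 ratio of knockout over wild type against mean FPKM (log axis) for 11047 measured names, with 23 names beyond the vertical axis not drawn. Dashed lines mark 2-fold. The 3 RNAs (circles) sit at 0.87 to 1.56, and the 6 protein genes (squares) sit inside the band of most genes.

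Set against each other, the median log2 ratio of the RNAs was 1.00 and that of the protein genes -0.03, a gap of 1.03. The lowest RNA, Rmrp, still lay 0.68 above the highest protein gene, Larp7. Summed over the RNAs, the level went from 125 FPKM in wild type to 301 FPKM in the knockout, while the summed level of the 6 protein genes was 35.4 and 34.6 FPKM. Levels per length of 7SK over its partners therefore differed between the libraries. Rn7sk stood at 14.7 times Hexim1 in wild type and 45.5 times in the knockout, and at 13.6 and 40.1 times Cdk9. Against Mepce it stood at 22.9 and 78.3 times, and against Ccnt1 at 5.38 and 18.6 times. These are ratios of RNA levels in a sequencing library, not of molecules in the complex. On the common FPKM sum the gap between RNAs and protein genes was 1.10, and Mepce, Hexim1, Ccnt1 and Ccnt2 lay above 0 in place of below it. The medians of the 3 partner lists with a negative median in the next paragraphs also changed sign there, to between 0.21 and 0.36, beside 0.34 for all measured names.

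The genes of the remaining proteins known to bind 7SK or to act in the release of P-TEFb were also near equal in RNA level. Of 14 listed, 13 were measured, 10 below 0 and 3 above it, with 0 past 2-fold and a median of -0.08 beside -0.05 for all measured names. Hnrnpa1, whose protein binds 7SK that has let go of P-TEFb, had the largest difference, at 35.9 FPKM in wild type and 28.5 FPKM in the knockout (-0.32). Ppp1ca, a catalytic subunit of protein phosphatase 1, was at -0.22, Hnrnpr at -0.20 and the splicing factor gene Srsf2 at -0.17. Hexim2, a relative of Hexim1, was below the measured limit at 0.503 and 0.570 FPKM.

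Genes of pausing and elongation factors, a list that also holds the CDK-activating kinase, were likewise near equal in RNA level. Of 31 pausing and elongation genes, 29 were measured, 21 below 0 and 8 above it, with 0 past 2-fold and a median of -0.07. Of all 11070 measured names, 6982 were below 0 as well. Supt4a, a subunit of the pausing factor DSIF, had the largest difference, at 12.4 FPKM in wild type and 9.43 FPKM in the knockout (-0.37). Wdr61, a subunit of the PAF1 complex, was at -0.26, and Ctr9 of the same complex at -0.18. Ccnh, the cyclin of the CDK-activating kinase, was at -0.25. The subunits of NELF, the pausing factor that P-TEFb phosphorylates, lay between -0.10 (Nelfa) and 0.02 (Nelfcd). Polr2a, the largest subunit of RNA polymerase II, was at 16.9 and 15.2 FPKM (-0.14).

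**Figure D3:**
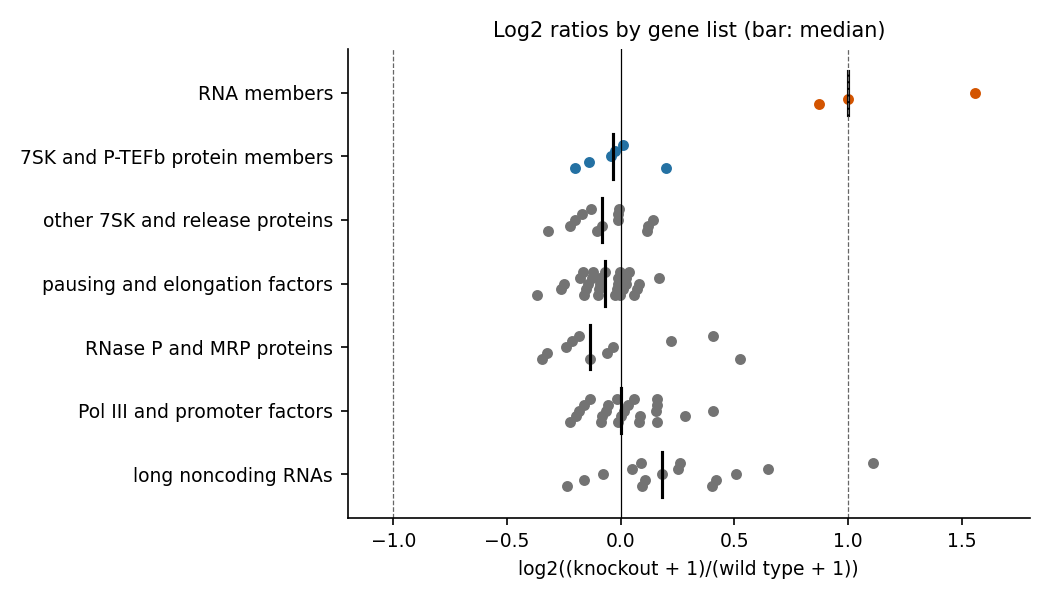
Log2 ratios of measured members of each gene list, 1 point per gene, with a black bar at each list's median and dashed lines at 2-fold. The RNA members lie between 0.87 and 1.56, and no gene of the 5 protein lists reaches 2-fold.

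RNase P and RNase MRP share most of their protein subunits, and the genes of these did not follow the RNAs as a list. All 11 were measured, 8 below 0 and 3 above it, with 0 past 2-fold and a median of -0.13. The 3 above 0 were Rpp25, Rpp38 and Pop5. Rpp25, which binds the RNAs together with Rpp20, was at 0.664 FPKM in wild type and 1.39 FPKM in the knockout (0.53), a plain ratio of 2.10 that the added 1 FPKM shrinks. Rpp38 was at 2.92 and 4.20 FPKM (0.41). Rpp40 (-0.34) and Rpp25l (-0.32) lay on the other side. Rpph1 stood at 9.53 times Pop1, the largest protein subunit, in wild type and at 23.9 times in the knockout, and Rmrp at 15.4 and 35.2 times. Against Rpp25 the levels were close to level between libraries, at 38.8 and 37.7 times for Rpph1 and 62.8 and 55.4 times for Rmrp. With a mean of 1.03 FPKM, Rpp25 was just over the measured limit, so these ratios are uncertain.

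**Figure D4:**
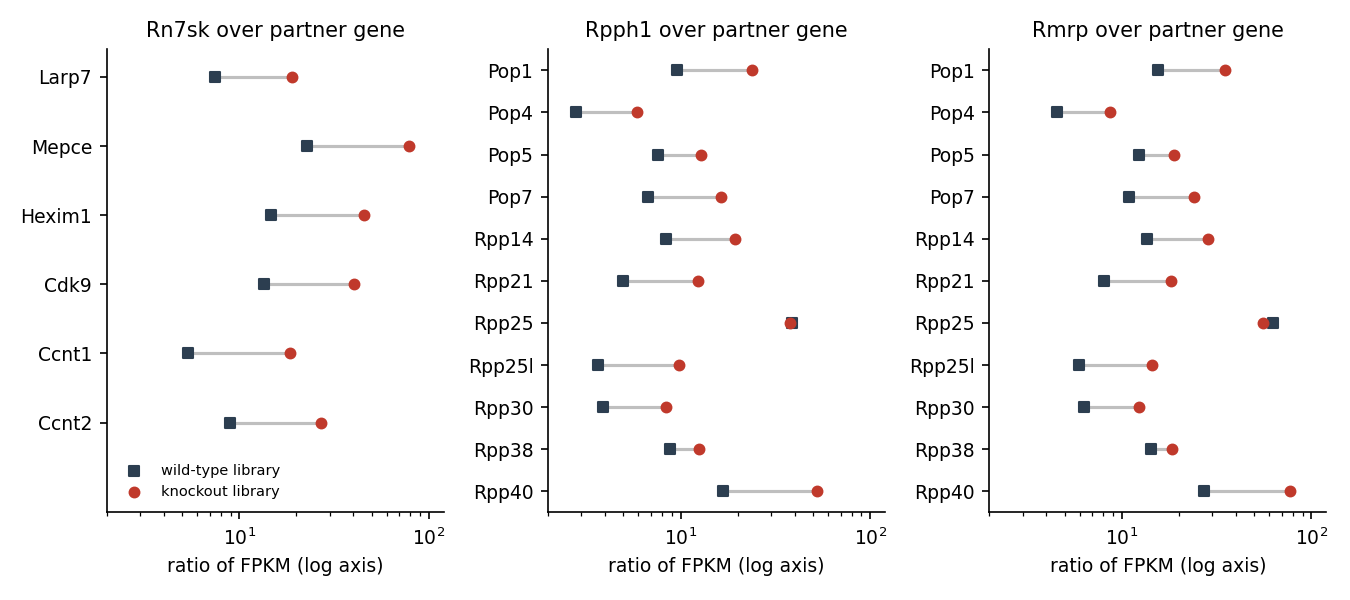
Ratio of FPKM (log axis) of each RNA over the partner genes named at the left of each panel, with squares for the wild-type library and circles for the knockout library. The ratio is higher in the knockout for all 6 partners of Rn7sk and for every RNase P and MRP subunit except Rpp25, which is just over the measured limit.

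The 3 RNAs share a polymerase and a kind of promoter, so the genes of RNA polymerase III and of the factors used at such promoters were listed as well. Of 25, 23 were measured, 12 above 0 and 11 below it, with 0 past 2-fold and a median of 0.00. Snapc5, a subunit of the SNAPc complex that recognises these promoters, was at 5.08 FPKM in wild type and 7.08 FPKM in the knockout (0.41), whereas Snapc3 was at -0.20. Polr1c, shared by RNA polymerases I and III, was at 0.28, and Polr3k at -0.22. Maf1, the repressor of RNA polymerase III, was at 4.54 and 3.88 FPKM (-0.18). Brf2, the initiation factor specific to this promoter kind, was below the measured limit at 0.700 and 0.586 FPKM.

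Other short noncoding RNAs were mostly listed at 0. Of 28 looked up by name, 22 had a row, and 17 of these were listed at 0 in both libraries, among them the Y RNAs Rny1 and Rny3, the U6 RNA gene Rnu6 and the 5S RNA gene Rn5s. Those named are 102 to 119 bases long, against 281 to 331 bases for the 3 RNAs by longest transcript, so they differ in length. Rprl1 and Rprl2, also at 0, have 327 and 290 bases. A value of 0 in this kind of table can be a failed estimate. Rnu3a was listed at 220 FPKM in wild type and at 0 in the knockout, and Terc, the telomerase RNA, was at 0.146 and 0.234 FPKM. Rows named Snora, a class of small nucleolar RNAs, had 13 measured members, 9 above 0 and 4 below it, with 7 past 2-fold higher, 2 past 2-fold lower and a median of 1.74. Of these 13, 8 were at 0 in 1 library. Snord rows had 6 measured members, all below 0, 3 of them past 2-fold lower and 2 of them at 0 in 1 library. Scarna rows had 2 measured members, 1 above 0 and 1 below it. Rows named Mir, for microRNA genes, had 36 measured members, 16 above 0 and 20 below it, with a median of -0.01. Of these 36, 3 were past 2-fold higher and 6 past 2-fold lower, and 8 were at 0 in 1 library.

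Other RNA classes are given beside the 3 RNAs. Rows named Hist, most of them replication-dependent histone genes whose messages lack a poly(A) tail, had 35 measured members, 26 above 0, 2 past 2-fold higher and a median of 0.30. Rn18s, a row of ribosomal RNA, was at 15694 FPKM in wild type and 20121 FPKM in the knockout (0.36). Long noncoding RNAs had 15 measured members, 12 above 0, with a median of 0.18. Among all 11070 measured names, 4087 were above 0. Gas5, a host of small nucleolar RNAs, was past 2-fold (1.11), followed by Snhg5 at 0.65, H19 at 0.51 and Epb41l4aos at 0.42. The kit named in the labels is generally used with oligo(dT) capture, but the labels do not say how RNA was selected. The part of RNA selection in the values of Rn7sk, Rpph1 and Rmrp was not tested.

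Length was compared in the same way. Of the measured names, 9375 had a length in GENCODE vM21, and 36 had a longest transcript of 250 to 400 bases, the class of the 3 RNAs. The 33 others had a median log2 ratio of -0.04 and a median absolute log2 ratio of 0.22, with 1 past 2-fold higher and 0 past 2-fold lower. That 1 was Gm6030 at 1.16, a name of the predicted-gene kind like 25 of the 33, and it was also the single other name above Rmrp. Names longer than 2000 bases had a median absolute log2 ratio of 0.11.

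**Figure D5:**
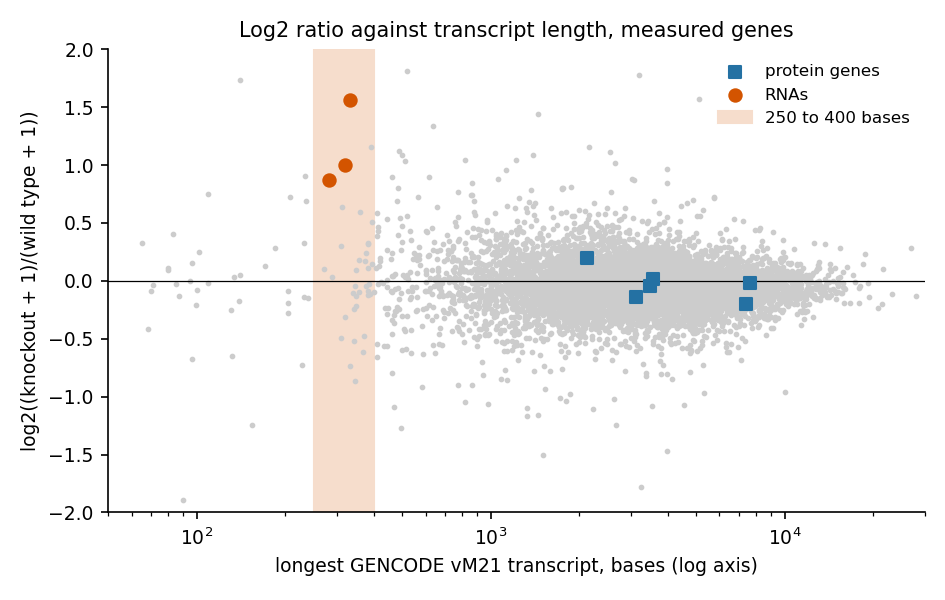
Log2 ratio against the longest GENCODE vM21 transcript in bases (log axis) for measured names with a length and a log2 ratio within 2 of 0. The shaded band holds transcripts of 250 to 400 bases, in which the 3 RNAs (circles) lie at the top with Gm6030, and the 6 protein genes (squares) lie among longer transcripts near 0.

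Copies of these RNAs elsewhere in the genome make the levels uncertain, since Cufflinks can divide fragments among near-identical genes. Of the RNase P RNA-like genes, Rprl1 and Rprl2 were listed at 0 in both libraries. Rprl3 was at 0.238 FPKM in wild type and 1.53 FPKM in the knockout, on about 1 and 4 fragments, with a counting interval of 0.630 to 313 for the plain ratio. A local alignment of Rpph1, of 319 bases, with Rprl3 spanned 257 columns, of which 221 (86.0%) were identical. The opening of Rpph1 is shown, a stretch closer to Rprl3 than the alignment as a whole. Capitals mark the 7 bases in it that are not matched by Rprl3.
Rpph1, bases 1 to 120: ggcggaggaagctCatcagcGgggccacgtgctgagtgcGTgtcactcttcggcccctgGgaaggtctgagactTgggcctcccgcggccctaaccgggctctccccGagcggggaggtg
The mouse genome also holds many 7SK-like pseudogenes, and how the authors' alignment treated fragments that map to several places is not given in the sources used here.

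Genes beside the RNAs were compared next, by the gene order of the RefSeq table of GRCm38.p6, with the nearest 2 names in the table on each side. C920006O11Rik, a long noncoding RNA gene that follows Rn7sk directly, was at 0.0849 FPKM in wild type and 1.05 FPKM in the knockout. It was below the measured limit, with a log2 ratio of 0.92, and the plain ratio of 12.3 rested on about 3 and 24 fragments (counting interval 3.92 to 66.9). On the other side of Rn7sk, Cilk1 was at -0.10 and Fbxo9 at 0.15. Gsta4, a glutathione transferase gene beyond C920006O11Rik, was at 8.29 and 3.46 FPKM (-1.06). Signs near 0, as for Cilk1 and Fbxo9, carry no direction, and a cause shared by Rn7sk and its neighbours was not tested.

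Parp2, a DNA repair gene that starts next to Rpph1, was at 9.50 FPKM in wild type and 10.9 FPKM in the knockout (0.18). Ttc5 and Tep1 near it were at -0.19 and -0.11, and Ccnb1ip1 was at or near 0 in both libraries. Near Rmrp, Arhgef39 was at 0.771 and 0.790 FPKM, Car9 at 4.48 and 4.47 FPKM, Cd72 at -0.32, and Sit1 was listed at 0 in both. The level of Ccdc107, the direct neighbour of Rmrp, was not analysed here. A GENCODE transcript of it overlaps Rmrp on the opposite strand. The labels do not say that counting used strand, and without strand the reads of such overlapping genes cannot be told apart.

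Sequence between the RNAs and their neighbours is shown next, and its part in the levels was not tested. Each window is the 250 bases before the start of the neighbour in the RefSeq promoter table of GRCm38.p6, a later build than that of the authors' alignment, on the + strand. RefSeq's promoter table had an entry for 5 of the 9 genes. It had no entry for Rn7sk, Rpph1, Rmrp or Mepce. Capitals mark matches on either strand of ATGCAAAT, the octamer bound by the factor POU2F1, and of TATAA.
C920006O11Rik, chr9:78175664-78175913: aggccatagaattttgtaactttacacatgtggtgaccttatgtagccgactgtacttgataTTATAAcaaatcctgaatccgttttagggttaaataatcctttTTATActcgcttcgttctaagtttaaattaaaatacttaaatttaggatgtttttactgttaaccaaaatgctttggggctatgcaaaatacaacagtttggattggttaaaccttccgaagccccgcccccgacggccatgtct
Parp2, chr14:50807666-50807915: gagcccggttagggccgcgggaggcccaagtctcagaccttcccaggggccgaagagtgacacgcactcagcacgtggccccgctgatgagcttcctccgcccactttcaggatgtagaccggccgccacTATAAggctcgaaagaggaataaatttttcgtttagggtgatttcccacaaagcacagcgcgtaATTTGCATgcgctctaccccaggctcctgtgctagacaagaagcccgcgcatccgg
Ccdc107, chr4:43493115-43493364: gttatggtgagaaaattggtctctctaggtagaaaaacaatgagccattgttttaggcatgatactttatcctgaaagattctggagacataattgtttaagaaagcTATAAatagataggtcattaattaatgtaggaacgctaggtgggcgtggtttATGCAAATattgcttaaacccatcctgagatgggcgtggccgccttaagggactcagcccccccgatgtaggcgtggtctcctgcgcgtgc
The first 102 bases of the Parp2 window are the reverse complement of the first 102 bases of Rpph1, so the window runs from inside Rpph1 to the start of Parp2. The C920006O11Rik and Ccdc107 windows shared 0 bases in this way with Rn7sk and Rmrp, so they may not reach these RNAs. The octamer was found once in each of the Parp2 and Ccdc107 windows and not in the C920006O11Rik window. It was found in 1.60% of the 32851 windows of this length in the table. TATAA was found at 1 place in the Parp2 window, at 1 in the Ccdc107 window and at 2 in the C920006O11Rik window (1 of these matched on both strands), and in 22.8% of all windows. A match describes letters only and is not evidence of binding.

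Names with log2 ratios nearest to those of the RNAs were taken among 5829 names with a mean of 5 FPKM or more, by the absolute difference over the 2 libraries. Nearest to Rn7sk were LOC100503795 (1.54), Rps28 (1.44), LOC100503203 (1.69), LOC100503054 (1.38) and Snora7a (1.74). Among those nearest to Rpph1 were Ucp2 (0.97), S100a11 (1.03), LOC100503758 (1.04) and the histone gene Hist1h4c (1.04). With 2 libraries a likeness of this kind rests on 1 number per gene.

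The authors' deposited table gives Rn7sk a p-value of 5.27e-11, beside 0.00161 for Rpph1 and 0.00521 for Rmrp. For the 6 protein genes the p-values in the authors' deposited table ran from 0.321 (Ccnt1) to 0.953 (Cdk9). With 1 library per genotype these values hold no spread between cultures, and they come from the same difference on which the RNAs were selected.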

How the data were processed

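One library per genotype was made from 1 µg of total RNA with the TruSeq RNA kit and sequenced on an Illumina HiSeq 2000, per the labels' protocols and the series' design text. The authors aligned reads with TopHat2 2.0.10 to NCBI mouse build 37.2, quantified gene models of that build with Cufflinks and deposited FPKM per gene with a Cuffdiff2 p-value, per the design text and the file headers. The wild-type column also carries a -/- mark in its header and was matched by library title, on which all directions rest.

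The 25587 rows held 25430 names, and names that recurred were represented by their row of highest mean. Log2 ratios used a pseudocount of 1 FPKM. Of 175 listed genes, 168 were matched, by symbol, within joined names or by older RefSeq names. The fragment scale was a line fitted to the inverse value of 1 fragment against length, from names within 0.03 (log2) of 1 to 2 or 2 to 1 fragments. Of 15 such names 9 were kept, and the others departed from a robust line by over 25%. This scale was added after the values were seen and was tested on simulated data. Python 3.11.15, numpy 2.4.6, pandas 2.3.3, scipy 1.17.1 and biopython 1.88 were used.

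Members and lists were chosen with earlier results of these data known. The rule named Sptbn1, the members, up to 4 measured genes per list with the largest differences, any past 2-fold, and the 5 names nearest to Rn7sk and to Rpph1. Other genes, neighbours included, were named after their values were seen. Values of 2 further genes are not reported here. Alternatives were the pseudocount, the scaling, the minimum level, repeated names summed and the mean in place of the median.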

Additional observations from a re-analysis of the deposited data

How the results depend on the processing

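The gap between the RNAs and the protein genes ranged from 1.03 to 1.18 over 7 alternatives. Most of these rescale whole libraries, which largely cancels in a difference of log2 ratios. Summing repeated names cannot change members with 1 row, so the narrow range is no measure of stability. Of 109 alternative values 105 stayed within 1.5 times, signs near 0 aside. This tolerance was wide beside the log2 ratios, since Larp7 at 0.20 and 0.61 counted as within it. The 4 values that moved were all counts of names. A common FPKM sum shifted the median of all measured names by 0.39, gave 105 names 2-fold or more higher and 26 lower, and placed Rmrp at 1.33 and Mepce, Hexim1, Ccnt1 and Ccnt2 above 0, so signs near 0 carry no direction. That sum is weighed on by a few small RNA rows. Without small RNA rows, the 3 RNAs and Dnaja1, a setting chosen after seeing the data, the shift was 0.02. A minimum mean of 5 FPKM left 25 higher and 30 lower names, because fewer were tested, and a pseudocount of 0.1 FPKM gave 60 higher and 72 lower names. No paired analysis was possible because each genotype had 1 library, and for the same reason no library could be left out. Depth limits C920006O11Rik and Rprl3, which rest on few fragments.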

Other observations

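LOC100503795 was listed at 57.9 FPKM in wild type and 170 FPKM in the knockout, values close to those of Rn7sk in both libraries (57.3 and 171 FPKM). The tables used here do not pair this name with a gene, and what it measures was not tested.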
